A study of Rattus norvegicus with 24 samples.

Results

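The 8 neutrophil genes described here are S100a8, S100a9, Lcn2, Mpo, Csf3r, Cxcr2, Camp and Ngp, 8 of the 32883 genes in the table of normalized counts. They were taken from the table by their symbols, with earlier results of these data known. Each symbol stood on a single row, and all 8 had a mean normalized count of at least 2 and entered the tests. RNA was sequenced from the urethra of 12-week-old virgin female Sprague-Dawley rats, 3d or 7d after simulated vaginal delivery (SVD), in which the pudendal nerve is crushed and the vagina distended. One hour after SVD the rats received saline, mesoangioblasts (MAB) or VEGF-overexpressing mesoangioblasts (VEGF MAB) into the aorta, which gave 6 groups of 4 samples. Every group was injured, and no uninjured urethra is among the samples. Mesoangioblasts are vessel-associated progenitor cells, here a line from the skeletal muscle of a donor rat. Per the methods the cells were given a lentiviral GFP and luciferase reporter, and for VEGF MAB a lentivirus with VEGF165 and a truncated CD34 was used. Whether VEGF MAB carried it beside or in place of the reporter is not said in so many words, though their light was imaged. The labels give the saline and MAB samples as WT and the VEGF MAB samples as VEGF OE, which describes the injected cells and not the rat. The sample codes leave a doubt about 1 group. In 5 groups the code in each title opens with the day of collection, 3 or 7, but in the 4 samples titled MAB 3d it opens with 0.5. The cell dose is written with the same figure, and the title and treatment labels give day 3, which is the time point used here. Whether the code marks the dose or a time is not given in the sources used here. Of the VEGF MAB samples of 7d, the labels name replicates 6 and 7 as recovered. The methods give 4 urethral RNA samples per group and do not say in so many words that each came from its own rat, and so p-values measure the spread between these samples.

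Neutrophils are short-lived white cells that leave the blood for injured tissue within hours, guided by chemokines that bind Cxcr2, while Csf3 acting on Csf3r drives their production and survival. They carry ready-made granules. Mpo and the serine proteases fill the primary granules, which are loaded in the bone marrow, and Lcn2, Camp and Ngp belong to the secondary granules that are filled later. S100a8 and S100a9 form calprotectin, a calcium- and zinc-binding pair that makes up much of the neutrophil cytosol and acts as an alarm signal outside the cell. Mature neutrophils keep little mRNA for their granule proteins, whereas S100a8 and S100a9 are also made by monocytes, and Lcn2 also by stressed epithelium.

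Promoter sequence is shown for the 3 members that passed a test below (S100a9, Mpo and Csf3r) and for Lcn2, a gene of the later granules. Each line holds the 250 bases before the gene start, from RefSeq on the rat build GRCr8, written 5′ to 3′ along the gene's own strand. These coordinates belong to GRCr8, not to the build Rnor6.0 of the counts. Capitals mark matches on either strand to TTNNGNAA, the core of the C/EBP motif, and to GAGGAA, the core of the PU.1 motif. C/EBP proteins and PU.1 are the main transcription factors of the granulocyte lineage.

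S100a9 (chr2:178490623-178490872, minus strand): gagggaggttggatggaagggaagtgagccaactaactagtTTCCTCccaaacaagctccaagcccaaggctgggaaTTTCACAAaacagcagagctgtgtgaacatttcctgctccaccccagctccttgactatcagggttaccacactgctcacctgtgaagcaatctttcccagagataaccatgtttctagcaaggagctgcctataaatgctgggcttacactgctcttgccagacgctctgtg
Mpo (chr10:73092152-73092401, plus strand): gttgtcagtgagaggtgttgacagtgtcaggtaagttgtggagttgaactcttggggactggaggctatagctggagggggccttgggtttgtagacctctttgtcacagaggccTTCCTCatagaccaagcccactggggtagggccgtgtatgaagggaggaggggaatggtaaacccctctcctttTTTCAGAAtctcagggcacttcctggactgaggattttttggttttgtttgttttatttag
Csf3r (chr5:143582970-143583219, plus strand): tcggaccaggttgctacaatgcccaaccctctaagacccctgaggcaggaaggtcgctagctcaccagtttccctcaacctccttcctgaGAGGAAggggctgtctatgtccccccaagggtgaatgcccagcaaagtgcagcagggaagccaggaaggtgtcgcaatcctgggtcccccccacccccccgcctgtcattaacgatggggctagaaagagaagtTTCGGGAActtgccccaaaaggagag
Lcn2 (chr3:36081781-36082030, minus strand): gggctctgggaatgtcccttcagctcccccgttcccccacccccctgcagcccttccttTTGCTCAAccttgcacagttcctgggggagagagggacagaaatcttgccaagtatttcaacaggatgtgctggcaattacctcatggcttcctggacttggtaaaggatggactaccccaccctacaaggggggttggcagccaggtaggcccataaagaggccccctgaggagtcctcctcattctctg

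A C/EBP core stood once in each of these 4 windows, and a PU.1 core stood once in those of S100a9, Mpo and Csf3r. No match to one motif overlapped a match to the other in the printed windows. The C/EBP core is common, since 37.2% of 33469 rat promoters of the same length held it, and 23.3% held the PU.1 core. The window of Ngp held 4 C/EBP cores, and those of Camp and Cxcr2 held neither motif. Of the 8 members, 7 had a RefSeq promoter, the exception being S100a8. A match describes letters and not binding.

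Between 2170695 and 10166052 reads per sample lay on genes, and 1 read was worth 1.67 to 9.23 normalized counts. The lowest group median was that of MAB at 3d (3452557 reads). A group in which no sample had more than 3 reads on a gene is treated as at the limit of detection. On the first principal component of the 500 most variable genes (70.7% of their variance), saline replicate 6 of 3d lay at 54.6 and the other saline samples of 3d between -52.3 and -6.43. VEGF MAB replicate 4 of 3d lay at 0.70 and the other VEGF MAB samples of 3d between 57.3 and 75.2. Saline replicate 8 and VEGF MAB replicate 2 of 3d had the lowest summed squamous epithelium markers (2618 and 4351 normalized counts, against 33124 to 150019 in the other samples). Without saline replicate 6 and VEGF MAB replicate 4 the numbers of called members were the same in all comparisons of the 6 groups, but the numbers over all genes moved. They went from 5 to 2213 genes for VEGF MAB against saline at 3d, with 1112 without saline replicate 6 alone and 1258 without VEGF MAB replicate 4 alone. Called genes went from 520 to 31 for saline at 3d against 7d, and from 0 to 579 (MAB) and 585 (VEGF MAB) for the change against saline, 3d minus 7d. Without saline replicate 8 those for MAB against saline at 3d went from 1997 to 369. The shares of all genes given below as a background carry this dependence. In bulk tissue, fewer cells of a type and less RNA per cell cannot be told apart. limma was fitted to all 24 samples over 16287 genes, and a gene counted as called when its Benjamini-Hochberg adjusted p was under 0.05 and its log2 fold change exceeded 1 in size. All log2 fold changes are differences of log2(normalized count + 1), which understates the change of low genes. The scaling moved the balance of called genes. Of 3751 genes called in MAB at 3d against 7d, 2765 were higher at 3d, and of 4033 after quantile normalization 2186 were. For VEGF MAB at 3d against 7d the numbers were 2132 of 2497 and 1645 of 2422, and for MAB against saline at 3d 1531 of 1997 and, with equal totals, 1102 of 2123. The median of all genes in MAB at 3d against 7d was 0.06, and -0.21 after quantile normalization.

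S100a8 and S100a9 were the best covered members, with 11292 and 10883 reads over all samples and reads in each of the 24 samples. Lcn2 had a read in 22 samples, Camp in 22, Ngp in 21, Cxcr2 in 11 and Mpo in 9. Csf3r had a read in all 24 samples, from 1 to 119 reads. Some genes used as neutrophil markers were close to absent. Cd177 and Cxcr1 had no read in any sample. Elane, the granule elastase, had a group mean of at most 4.52 normalized counts, and Cxcr2 never had more than 6 reads in a sample. Elane, Cd177 and Cxcr1 were picked after values were seen. Of the wider lists described below, 14 of 20 granule and effector genes and 16 of 19 receptor and adhesion genes in the table entered the tests. Most reads of the gene set lay on S100a8 and S100a9, which monocytes also express, and the name of the set is used here for the genes and not as a count of neutrophils.

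**Figure D1:**
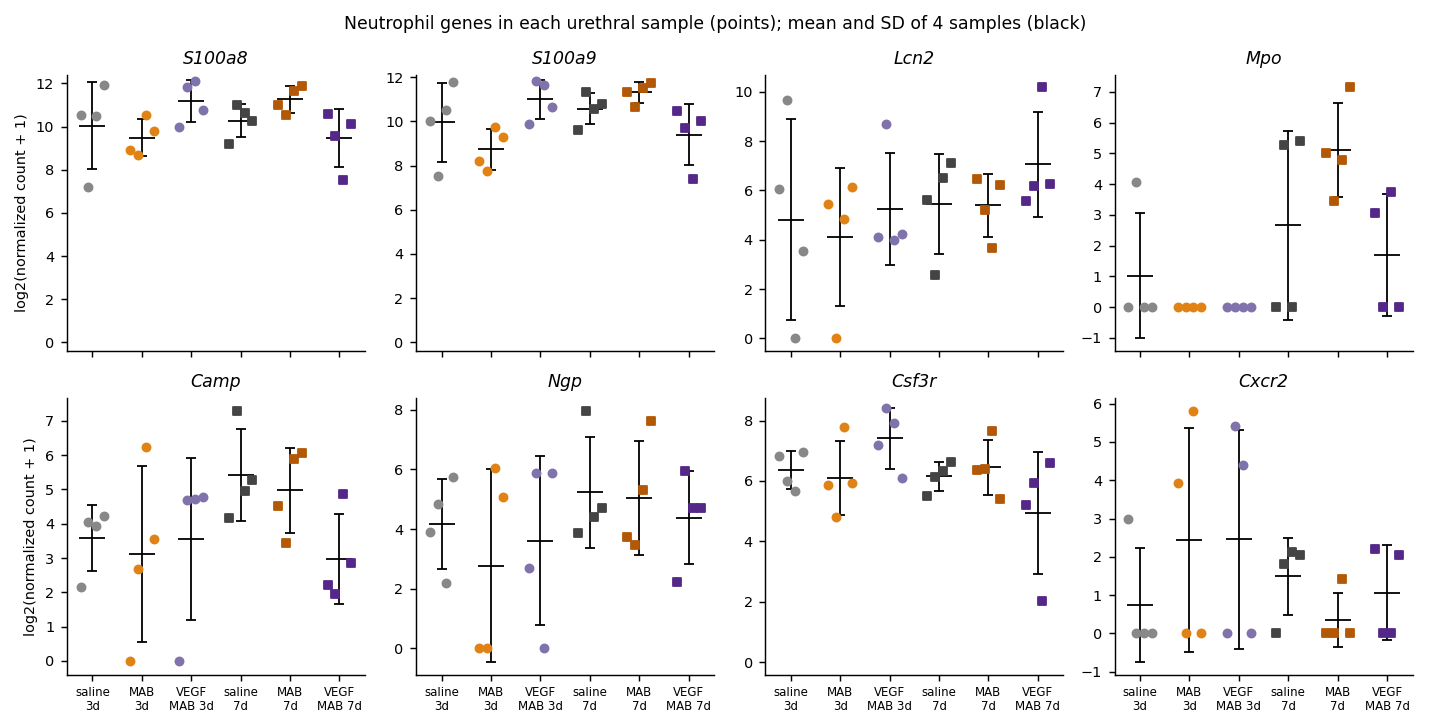
Normalized counts of the 8 genes as log2(normalized count + 1), one panel per gene, with one point per sample in the 6 groups (circles 3d, squares 7d) and the mean ± SD of 4 samples in black. The group mean of S100a9 is lowest in MAB at 3d (samples at 213 to 868 normalized counts) and highest in MAB at 7d (1619 to 3474). Mpo has reads in all 4 MAB samples of 7d and in none of the MAB samples of 3d.

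S100a9, the larger partner of calprotectin, was called lower at 3d than at 7d in MAB and had its higher mean at 3d in VEGF MAB, where it did not pass the test. In MAB its normalized counts at 3d were 291, 213, 868 and 618 in replicates 1 to 4. At 7d in MAB they were 2580, 1619, 2884 and 3474 in replicates 7.2, 9, 11 and 13. Every MAB sample of 7d lay above every MAB sample of 3d. In VEGF MAB the counts of S100a9 at 3d were 935, 3600, 3188 and 1616 in replicates 1 to 4. At 7d in VEGF MAB they were 1426, 841, 168 and 1047 in replicates 6, 7, 11 and 12. The VEGF MAB samples overlapped between the days only through replicate 1 of 3d, at 935, which lay below the 2 highest samples of 7d. With saline the counts of S100a9 were 1033, 184, 1455 and 3516 at 3d in replicates 6, 8, 9 and 10. At 7d with saline they were 791, 2549, 1517 and 1789 in replicates 1, 2, 3 and 5. The saline groups overlapped widely.

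By group mean, S100a9 stood in the order MAB 7d (2639 ± 775, SD, n = 4), VEGF MAB 3d (2335 ± 1266), saline 7d (1662 ± 726), saline 3d (1547 ± 1415), VEGF MAB 7d (870 ± 527) and MAB 3d (498 ± 303). Each of these groups overlapped with its neighbours in the order. In MAB, S100a9 was lower at 3d than at 7d by a log2 fold change of -2.57 (SE 0.70, limma adjusted p = 0.00767). For 3d against 7d the log2 fold change of S100a9 was 1.59 in VEGF MAB (SE 0.70, limma adjusted p = 0.113) and -0.62 with saline (SE 0.70, limma adjusted p = 0.690), and neither passed. Without replicate 8 of 3d the saline value was 0.19, and without replicate 10 of 3d it was -1.23. Without replicate 11 of 7d the VEGF MAB value was 0.92.

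S100a8, the smaller partner of calprotectin, followed S100a9 closely. In MAB its normalized counts were 490, 410, 1477 and 895 at 3d and 2041, 1477, 3261 and 3768 at 7d. The highest sample of 3d and the lowest of 7d both stood at 1477, so the groups met there. In VEGF MAB S100a8 stood at 1022, 3650, 4470 and 1772 at 3d and at 1531, 762, 186 and 1119 at 7d. With saline S100a8 stood at 1505, 145, 1451 and 3874 at 3d and at 589, 2049, 1564 and 1242 at 7d. The lowest samples of the series were saline replicate 8 of 3d and VEGF MAB replicate 11 of 7d for both genes. The log2 fold change of S100a8 between 3d and 7d was -1.78 in MAB (SE 0.75, limma adjusted p = 0.0733) and 1.73 in VEGF MAB (SE 0.75, limma adjusted p = 0.105), and neither passed the test. Without VEGF MAB replicate 11 of 7d the VEGF MAB value was 1.09. The MAB value passed by DESeq2 (adjusted p = 0.0322) and by edgeR (adjusted p = 0.0398), and in limma without saline replicate 8 of 3d (adjusted p = 0.0210).

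Over the 24 samples the log2 values of S100a8 and S100a9 had a Pearson r of 0.96 and a Spearman rho of 0.93, as a description over samples that share groups and depth. The ratio of S100a8 to S100a9 had its highest group mean in MAB at 3d, where it was 1.69 ± 0.19 (SD, n = 4), with 1.68, 1.92, 1.70 and 1.45 in replicates 1 to 4. In the other groups the mean ratio lay between 0.82 (saline 7d) and 1.15 (VEGF MAB 3d). Among those 20 samples only saline replicate 6 of 3d, at 1.46, reached the range of MAB at 3d. The ratio was looked at after the values were seen and is given without a test.

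**Figure D2:**
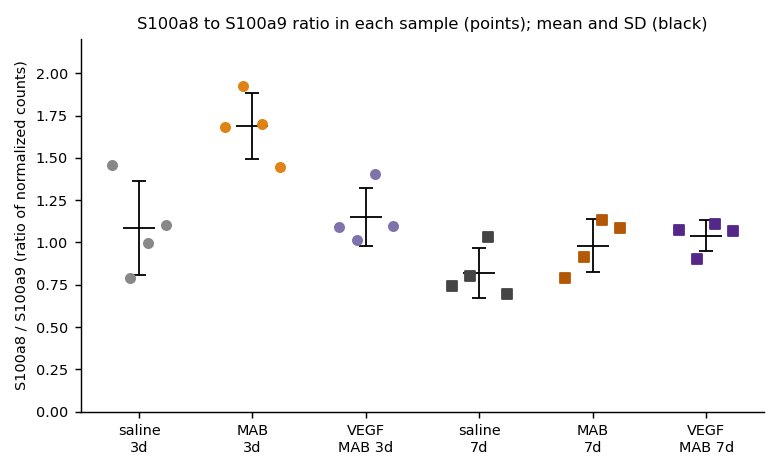
Ratio of the normalized counts of S100a8 to those of S100a9 in each sample (points; circles 3d, squares 7d), with the mean ± SD of 4 samples in black and the axis starting at 0. The 4 MAB samples of 3d lie between 1.45 and 1.92, while the saline samples of 7d lie between 0.69 and 1.03.

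The direct comparison of VEGF MAB with MAB sets the cells with the VEGF lentivirus against those without it. VEGF and the truncated CD34 came together and cannot be told apart in it. In the paper's cytokine array VEGF MAB also secreted more CXCL1, CXCL3, CXCL5, MCP1 and TIMP1 in culture. Its imaging gave more light from the pelvis with VEGF MAB than with MAB at 3d. The part of either in the values below was not tested. At 3d the 4 VEGF MAB samples of S100a9 (935 to 3600 normalized counts) all lay above the 4 MAB samples (213 to 868). At 7d the 4 VEGF MAB samples (168 to 1426) all lay below the 4 MAB samples (1619 to 3474). The log2 fold change of S100a9 in VEGF MAB against MAB was 2.25 at 3d (SE 0.70, unadjusted p = 0.00377, limma adjusted p = 0.539) and -1.91 at 7d (SE 0.70, unadjusted p = 0.0121, limma adjusted p = 1). Neither passed after adjustment over all genes, and without VEGF MAB replicate 11 the value at 7d was -1.24. S100a9 was the single member whose groups did not overlap in either comparison, where 1.63% (3d) and 1.84% (7d) of all tested genes did not overlap. The difference of the S100a9 changes, 3d minus 7d, was 4.16 (SE 0.99, unadjusted p = 0.000332, limma adjusted p = 0.941), and over the alternatives the adjusted p ran from 0.0885 to 1. Without VEGF MAB replicate 11 of 7d the difference was 3.49. This difference was added after the values of S100a9 were seen. These comparisons use the same MAB samples as the change from 3d to 7d in MAB and are not independent of it.

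No member was called by limma for VEGF MAB against MAB at 3d, where 0.00614% of all genes were called, 2 members had an unadjusted p below 0.05, and DESeq2 and edgeR also called 0. S100a8 had a log2 fold change of 1.70 (SE 0.75, limma adjusted p = 0.765) and Csf3r one of 1.31 (SE 0.77, limma adjusted p = 0.856). At 7d limma called 0 members and 0.0% of all genes, 3 members had an unadjusted p below 0.05, and DESeq2 and edgeR called 0. There the log2 fold change of S100a8 was -1.81 (SE 0.75), that of Csf3r was -1.51 (SE 0.77), that of Camp was -2.01 (SE 1.17) and that of Mpo was -3.40 (SE 1.23), each with a limma adjusted p of 1. Without VEGF MAB replicate 11, which had 1 Csf3r read, they were -1.17 for S100a8, -0.54 for Csf3r, -2.64 for Camp and -4.08 for Mpo. Without MAB replicate 13, Mpo was at -2.72. The median log2 fold change over the 8 members was 0.99 at 3d and -1.66 at 7d, beside -0.03 and -0.02 over all genes. For the difference between the days limma called 0 members and 0.00614% of all genes, 3 members had an unadjusted p below 0.05, and DESeq2 and edgeR called 0.

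**Figure D3:**
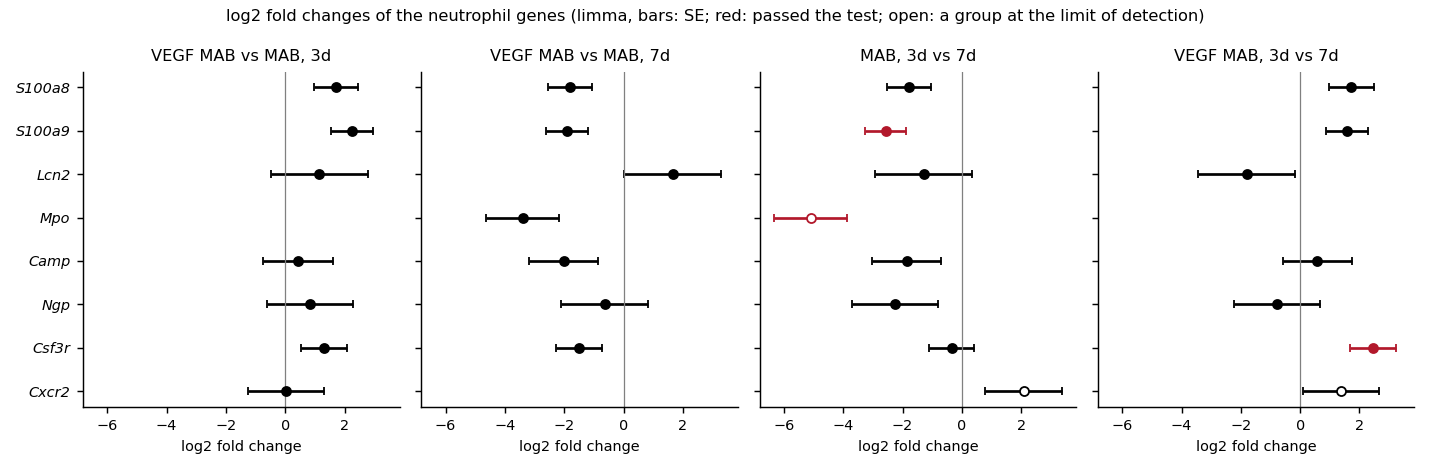
log2 fold changes of the 8 genes (x axis) in 4 comparisons, as points with their SE from limma, in red where the test was passed. Open points have a group at the limit of detection, and Mpo and Cxcr2 are left out where both groups were. Mpo is also left out in VEGF MAB at 3d against 7d, where its mean at 7d lay below the limit of 3d. S100a9 lies at 2.25 at 3d and at -1.91 at 7d for VEGF MAB against MAB, and passes the test only for MAB at 3d against 7d, with -2.57.

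Macrophage and monocyte markers moved in the same direction as S100a9 in some comparisons and in the other direction in others. The summed normalized count of the list, of which 9 of 11 genes were tested and none in the table was at 0 in every sample, ran from 1548 to 13830 in MAB at 3d and from 8298 to 29826 in MAB at 7d. In VEGF MAB it ran from 4607 to 20961 at 3d and from 6424 to 15526 at 7d, and with saline from 12362 to 24396 at 3d and from 16471 to 25370 at 7d. For MAB at 3d against 7d, 3 of 9 were called beside 23.0% of all genes, all lower (C1qa, C1qb and C1qc, the subunits of complement C1q), and the list's median log2 fold change was -1.12, beside 0.06 over all genes. For VEGF MAB against MAB, 8 of 9 had a higher fitted value at 3d (median 1.15, 0 called) and 0 of 9 at 7d (median -0.74, 0 called). For MAB against saline at 3d, 4 of 9 were called, all lower, beside 12.3% of all genes called. These 4 were C1qa, C1qb, C1qc and Csf1r, the receptor of the macrophage growth factor, and the list's median was -1.77. Where S100a9 had a positive value that did not pass, in VEGF MAB against saline at 3d, 0 of 9 had a higher fitted value (median -0.59). For MAB against saline at 7d, again with a positive S100a9 value that did not pass, 2 of 9 had a higher one (median -0.27). Saline replicate 8 of 3d also went the other way, with S100a9 at 184 and the macrophage sum at 24396. The part of monocytes and macrophages in the S100a9 differences was not tested.

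Mpo, the enzyme that makes hypochlorous acid in primary granules, was detected almost only at 7d. No MAB sample and no VEGF MAB sample of 3d had a read, which allows up to 0.221 and 0.198 CPM (reads scaled to library total) over the 13567709 and 15160476 reads of these groups, for counting error only. Of the saline samples of 3d only replicate 8 had any, 15.7 normalized counts from 4 reads. At 7d the counts in MAB were 31.0, 9.93, 26.7 and 141 in replicates 7.2, 9, 11 and 13, from 10, 3, 16 and 34 reads. With saline at 7d they were 0, 37.3, 0 and 40.9 in replicates 1, 2, 3 and 5. In VEGF MAB at 7d they were 7.26, 0, 12.4 and 0 in replicates 6, 7, 11 and 12. MAB at 7d was thus the only group with Mpo reads in every sample, though the 3 reads of replicate 9 do not exceed the limit of detection.

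In MAB, Mpo was called lower at 3d than at 7d (limma adjusted p = 0.00330). Against the limit of detection at 3d, its level at 7d was at least 2.56-fold higher. The fitted log2 fold change of -5.10 depends on the added count of 1, and over the alternatives it ran from -6.85 to -2.99 with adjusted p of at most 0.0345. In VEGF MAB at 3d and 7d no more than 4 reads were seen in any sample, and its adjusted p was 0.355. For MAB against saline at 7d, Mpo had a log2 fold change of 2.44 (SE 1.23, limma adjusted p = 0.820), which ran from 1.55 to 3.34 when single samples were left out, lowest without saline replicate 1 or 3 and highest without saline replicate 5.

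Adipocyte markers moved with Mpo between the days in MAB, but not in every comparison. All 7 adipocyte markers were called lower in MAB at 3d than at 7d, beside 23.0% of all genes called. The median log2 fold change of these markers was -5.46, or -4.53 with those near the detection limit at their bound. Their summed normalized count was 440 to 1680 in MAB at 3d, and 8518, 1159, 23359 and 38193 in MAB replicates 7.2, 9, 11 and 13 of 7d. Replicate 13 was highest and replicate 9 lowest in both Mpo and the adipocyte sum. The adipocyte sum was 395 to 1859 in VEGF MAB at 3d, 615 to 3919 in VEGF MAB at 7d, 875 to 9364 with saline at 3d and 3240 to 33951 with saline at 7d. The one sample of 3d with Mpo reads, saline replicate 8, had the highest adipocyte sum of 3d at 9364. Saline replicate 3 of 7d had an adipocyte sum of 26903 and no Mpo read. For MAB against saline at 7d, where Mpo had its positive value, 0 of 7 adipocyte markers had a higher fitted value (median -1.30). No gene of the adipocyte list was at 0 in every sample, and the part of fat tissue in the Mpo difference was not tested.

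**Figure D4:**
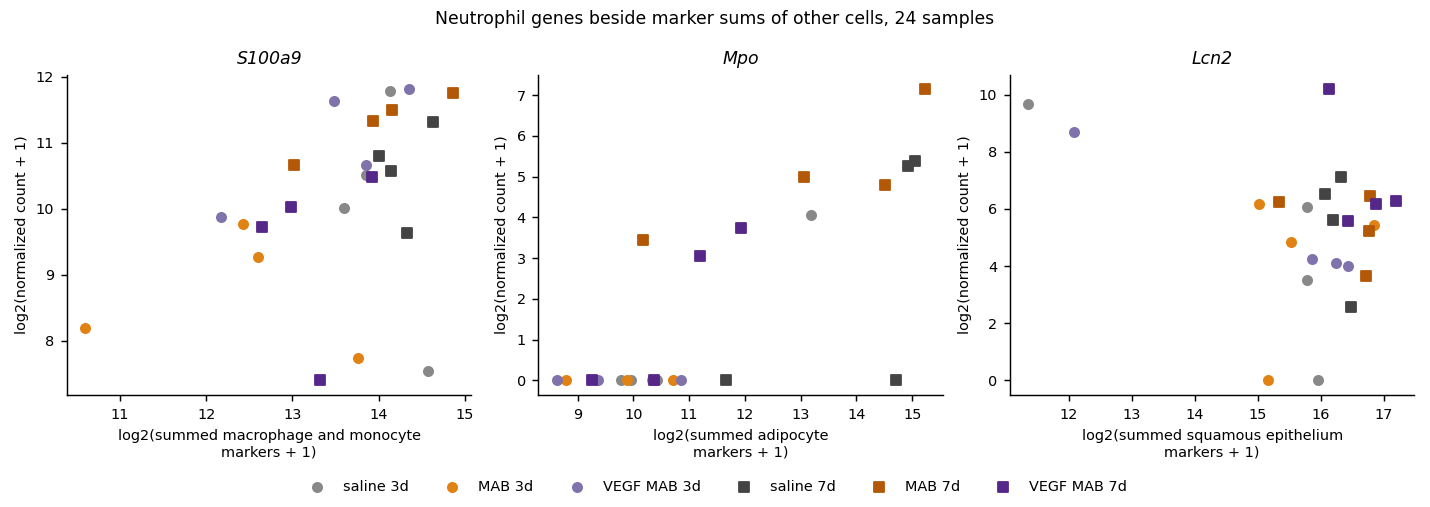
Each of the 24 samples by the summed markers of another cell type (x axis) and a neutrophil gene (y axis), both as log2(normalized count + 1). S100a9 is set against macrophage and monocyte markers, Mpo against adipocyte markers and Lcn2 against squamous epithelium markers. The MAB samples of 7d reach the highest Mpo (141) and adipocyte sum (38193), and the samples with the lowest squamous sums (2618 and 4351) have Lcn2 at 819 and 408.

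Csf3r, the receptor of the growth factor Csf3, had its highest levels in VEGF MAB at 3d. The counts there were 146, 342, 242 and 66.8 in replicates 1 to 4, and at 7d they were 36.3, 59.9, 3.10 and 94.6 in replicates 6, 7, 11 and 12. Replicate 4 of 3d lay within the range of 7d, so the groups overlapped. In MAB Csf3r stood at 56.8, 27.4, 222 and 59.7 at 3d and at 80.5, 82.8, 199 and 41.5 at 7d. With saline it stood at 114, 62.7, 50.03 and 123 at 3d and at 44.0, 69.7, 80.4 and 97.5 at 7d. Neither of these pairs separated. By group mean the order was VEGF MAB 3d (199 ± 119, SD, n = 4), MAB 7d (101 ± 67.8), MAB 3d (91.3 ± 88.0), saline 3d (87.4 ± 36.4), saline 7d (72.9 ± 22.4) and VEGF MAB 7d (48.5 ± 38.6), with every neighbouring pair overlapping.

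In VEGF MAB, Csf3r was called higher at 3d than at 7d, with a log2 fold change of 2.47 (SE 0.77, limma adjusted p = 0.0264). It was the single member called in this comparison, in which limma called 15.3% of all genes, so 1 of 8 is close to the share of all genes. Without replicate 11 of 7d, which had 1 Csf3r read, the log2 fold change was 1.498 (adjusted p = 0.127). Without replicate 2 or replicate 3 of 3d the adjusted p was 0.0939 and 0.0742, and edgeR gave 0.0503. No member was without overlap between the days, against 21.8% of all genes. The median of the members was 0.99, beside 0.05 over all genes, and it was 0.64 when the members near the detection limit took their bound.

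In MAB at 3d against 7d, 2 of 8 members were called (S100a9 and Mpo, both lower at 3d), where limma called 23.0% of all genes. Both were also without overlap, against 27.0% of all genes. For Mpo this rests on MAB replicate 9 of 7d, at 9.93 normalized counts from 3 reads. That value lies below the mean detection limit of MAB at 3d (20.4 normalized counts), so the separation of Mpo is not resolved at this depth. The share of members called was therefore near that of all genes. The median log2 fold change of the members was -1.82, beside 0.06 over all genes, and it was -1.57 when Mpo took the bound given above. Mast cell markers fell in the same comparison, with 7 of 8 called lower (median -4.13, or -1.27 with genes near the detection limit at their bound) and none at 0 in every sample. Their summed normalized count was 246 to 376 in MAB at 3d and 623 to 1075 in MAB at 7d. It was 640 to 2512 with saline at 3d, 670 to 1825 with saline at 7d, 178 to 725 in VEGF MAB at 3d and 522 to 1555 in VEGF MAB at 7d. For MAB against saline at 3d, 7 of 8 mast cell markers were also called lower, beside 12.3% of all genes called. The list's median there was -4.49, or -1.73 at the bounds. The part of mast cells in the values of the members was not tested.

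Lcn2, the siderophore-binding lipocalin, was high in only 3 samples. It was highest in VEGF MAB replicate 11 of 7d (1170 normalized counts), in saline replicate 8 of 3d (819) and in VEGF MAB replicate 2 of 3d (408). In the other 21 samples it lay between 0 and 138. VEGF MAB replicate 11 and saline replicate 8 were the samples with the lowest S100a9 in the whole series, at 168 and 184, while VEGF MAB replicate 2 had the highest S100a9, at 3600. The log2 values of Lcn2 had a Pearson r of -0.32 with S100a8, -0.21 with S100a9, 0.26 with Mpo and 0.32 with Ngp over the 24 samples, as a description. Saline replicate 8 and VEGF MAB replicate 2 also had the lowest squamous sums (2618 and 4351), while VEGF MAB replicate 11 had a squamous sum of 71683. The urothelium sum was 357 in saline replicate 8, 1067 in VEGF MAB replicate 2 and 9869 in VEGF MAB replicate 11, against 8690 to 63234 in the remaining samples. The part of epithelium in these values was not tested. No comparison called Lcn2, and its limma adjusted p ran from 0.470 to 1.

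Camp, the cathelicidin peptide, and Ngp, a related granule protein, were found at low levels. Camp had group means from 10.2 ± 11.9 normalized counts in VEGF MAB at 7d to 60.4 ± 64.9 with saline at 7d (SD, n = 4). Ngp had group means from 24.3 ± 31.0 in MAB at 3d to 76.9 ± 115 with saline at 7d. A single sample made the saline peak of both, since replicate 2 of 7d held 157 normalized counts of Camp and 249 of Ngp. The other 3 saline samples of 7d lay between 16.9 and 37.7 for Camp and between 13.5 and 25.2 for Ngp. The log2 values of Camp and Ngp had a Pearson r of 0.61 over the 24 samples, as a description. Camp in VEGF MAB against saline at 7d had a log2 fold change of -2.46 (SE 1.17, unadjusted p = 0.0460, limma adjusted p = 0.779). It was -1.83 without saline replicate 2 and -3.08 without VEGF MAB replicate 11. No comparison called either gene.

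Cxcr2, the receptor for the Cxcl1 and Cxcl2 chemokines, was near the limit of detection throughout. At 3d it had 2 and 6 reads in MAB replicates 1 and 3 and 5 and 4 reads in VEGF MAB replicates 2 and 3. Saline replicate 6 of 3d had 2 reads. At 7d no sample had more than 1 read. Differences in Cxcr2 were not detectable at this depth, and its adjusted p was at least 0.232 in every comparison.

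Against saline no member was called on either day. At 3d the mean of S100a9 was 498 in MAB and 1547 with saline, with a log2 fold change of -1.22 (SE 0.70, limma adjusted p = 0.239), and 0 members had an unadjusted p below 0.05. It was -2.02 without saline replicate 8 (adjusted p = 0.0696) and -0.61 without saline replicate 10. In the same comparison limma called 12.3% of all genes, and DESeq2 and edgeR called 0 members with 1 at an unadjusted p below 0.05. The corresponding value of S100a8 was -0.55 (SE 0.75, limma adjusted p = 0.646) and was -1.503 without saline replicate 8 of 3d and 0.07 without saline replicate 10. For VEGF MAB against saline at 3d, S100a9 had a log2 fold change of 1.04 (SE 0.70, limma adjusted p = 0.456) and S100a8 one of 1.15 (SE 0.75, limma adjusted p = 0.438). Without saline replicate 8 they were 0.23 and 0.19, without saline replicate 10 they were 1.64 and 1.77, and without saline replicate 8 and VEGF MAB replicate 2 they were -0.044 and -0.021. There limma, DESeq2 and edgeR called 0 members, also 0 at an unadjusted p below 0.05. In limma 0.0307% of all genes were called, or 5 genes. This number rose to 2213 without saline replicate 6 and VEGF MAB replicate 4 of 3d.

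At 7d, S100a9 in MAB against saline had a log2 fold change of 0.73 (SE 0.70, limma adjusted p = 0.956), and in VEGF MAB against saline one of -1.17 (SE 0.70, limma adjusted p = 0.831). Csf3r in VEGF MAB against saline had one of -1.21 (SE 0.77, limma adjusted p = 0.838). Without VEGF MAB replicate 11 these values for VEGF MAB were -0.50 for S100a9 and -0.24 for Csf3r. For MAB against saline limma called 0 members and 0.0% of all genes, with 0 members at an unadjusted p below 0.05, and DESeq2 and edgeR called 0. In VEGF MAB against saline limma called 0 members and 0.0% of all genes, with 1 member at an unadjusted p below 0.05, and DESeq2 and edgeR called 0. In the change with saline alone, 3d against 7d, limma called 0 members and 3.19% of all genes, with 0 at an unadjusted p below 0.05, and DESeq2 and edgeR called 0 with 1. Tested as differences between the days, MAB against saline and VEGF MAB against saline also gave 0 called members by limma, DESeq2 and edgeR, with 0.0% of all genes called by limma. At an unadjusted p below 0.05, limma had 0 and 1 members, and DESeq2 and edgeR both had 2 and 1.

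The 2 recovered urethras of 7d, both given VEGF MAB, were set against the 10 other samples of 7d. Camp had 1 read in each recovered sample (3.63 and 2.85 normalized counts) and 2 to 63 reads in the others, with an unadjusted p of 0.00970 and a limma adjusted p of 0.812. S100a9 stood at 1426 and 841 in the recovered samples, within the range of the others (168 to 3474). limma called 0 members and 0.0123% of all genes, with 1 member at an unadjusted p below 0.05, and DESeq2 and edgeR called 0. The other samples include all 3 treatments, so recovery and treatment are partly confounded here.

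The wider neutrophil pathway was described by lists of other genes. Of 14 tested ligands that recruit or feed neutrophils, 3 were called lower in MAB at 3d than at 7d and none higher, a share close to the 23.0% of all genes called. These were the chemokines Cxcl1 (84.6 ± 75.0 against 2074 ± 2291 normalized counts) and Cxcl2 (59.6 ± 78.1 against 1460 ± 2560) and the growth factor Csf3 (1.36 ± 2.71 against 165 ± 276). The log2 fold changes were -4.30 (SE 0.95) for Cxcl1 and -3.53 (SE 1.27) for Cxcl2, and Csf3, near the limit of detection at 3d, was at least 8.10-fold higher at 7d. The 3 limma adjusted p were 0.00166, 0.0387 and 0.00417. Cxcl1 was also lower with saline at 3d than at 7d (55.2 ± 37.1 against 2508 ± 2107, limma adjusted p = 0.0103). In VEGF MAB 3 other ligands were called, all higher at 3d, beside 15.3% of all genes. They were Il1b (849 ± 571 against 248 ± 134), which activates endothelium, and the chemokines Ccl3 (69.96 ± 53.6 against 7.95 ± 7.37) and Ccl4 (71.4 ± 76.9 against 4.68 ± 5.95). The median log2 fold change of the ligands was -1.48 in MAB and 0.43 in VEGF MAB, beside 0.06 and 0.05 over all genes, and the VEGF MAB median turned to -0.05 after quantile normalization. For VEGF MAB against MAB no ligand was called, and the ones with the highest means were Cxcl6 (1382 against 1069 at 3d, 5406 against 8638 at 7d), Pf4 (1208 against 1689, 1161 against 2168) and Cxcl1 (233 against 84.6, 330 against 2074).

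Of 14 tested granule and effector genes, 2 were called in MAB between the days, both lower at 3d, a smaller share than the 23.0% of all genes. They were Hp, the haptoglobin that binds free haemoglobin (35.0 ± 37.4 against 94.0 ± 25.3), and Pglyrp1, which binds bacterial peptidoglycan (35.3 ± 11.8 against 98.1 ± 27.1). The list's median was -1.91 in MAB, and -1.18 with genes near the detection limit at their bound. None was called in VEGF MAB, where the median was 0.18, and -0.22 after quantile normalization. For VEGF MAB against MAB the median was 0.72 at 3d, or 0.23 at the bounds, and -1.05 at 7d, with 0 called on either day. The most abundant of these genes were Lyz2 (10336 against 4297 at 3d, 6089 against 9072 at 7d), Serpinb1a (6846 against 7591, 6128 against 7925) and Mmp8 (89.3 against 67.7, 36.2 against 136), the last a collagenase of neutrophil granules. In MAB against saline at 3d, Lyz2, the lysozyme shared with macrophages, was called lower (4297 ± 2159 against 18135 ± 8405).

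The calls in the next lists stand beside 15.3% of all genes in VEGF MAB between the days, 23.0% in MAB between the days and 12.3% for MAB against saline at 3d. Among 16 tested receptors and adhesion molecules, Clec7a, a receptor for fungal glucan, was called higher in VEGF MAB at 3d than at 7d (1007 ± 696 against 236 ± 96.5). Tlr4, the receptor for bacterial lipopolysaccharide, was the one called in MAB, higher at 3d (44.5 ± 12.8 against 16.1 ± 3.07). Ptafr, the receptor of platelet-activating factor, was called lower in MAB than with saline at 3d (227 ± 57.3 against 612 ± 128). Of 8 tested genes of the oxidative burst and extracellular traps, Cybb, the catalytic part of the phagocyte oxidase, was called higher in VEGF MAB at 3d than at 7d (4001 ± 3653 against 1032 ± 208). Alox5ap, which leukotriene synthesis needs, was called lower in MAB at 3d, both against saline (226 ± 117 against 820 ± 389) and against 7d (936 ± 421).

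Of 9 granulocyte transcription factors, Cebpa and Cebpd were called lower and Myb higher in MAB at 3d than at 7d, beside 23.0% of all genes. Cebpa stood at 246 ± 68.3 against 848 ± 665, Cebpd at 1089 ± 567 against 5046 ± 2167, and Myb, a factor of early progenitors, at 38.5 ± 3.63 against 5.86 ± 2.70. Myb was also called higher in MAB than with saline at 3d (8.43 ± 7.65 with saline). Cebpb was called lower in VEGF MAB at 3d than at 7d (459 ± 60.5 against 1046 ± 394). Cebpa and Cebpd are also factors of fat cells, and all 7 adipocyte markers were likewise called lower in MAB at 3d than at 7d. With saline, 3 of 7 adipocyte markers were called lower at 3d than at 7d, beside 3.19% of all genes. No factor of this list was called there. The part of fat tissue in these values was not tested. For VEGF MAB against MAB, 0 genes of these 5 lists were called on either day. The most abundant receptors were then Clec7a (1007 against 268 at 3d, 236 against 394 at 7d), Ptafr (353 against 227, 349 against 372) and C5ar1, the receptor of complement C5a (396 against 159, 122 against 247).

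The genes most like each member over the 24 samples were found by the Pearson r of log2 values among genes with a mean of at least 10. Beside each other, S100a8 and S100a9 were closest to Mcemp1, a membrane protein of myeloid cells, with r of 0.85 and 0.83. The next gene was Aqp9 for S100a8 (r of 0.80) and Napsa for S100a9 (r of 0.71). Mcemp1 itself had means from 54.5 ± 27.2 in MAB at 3d to 199 ± 159 in VEGF MAB at 3d. Csf3r was closest to Pla2g7 (0.73), Ncf4 (0.72), a subunit of the phagocyte oxidase, and Cnr2 (0.71). Mpo was closest to Gpd1 (0.82), a glycerol phosphate dehydrogenase abundant in fat, Apex1 (0.79) and Cebpa (0.79). Camp was closest to the complement genes C6 (0.80) and Cfd (0.75) and to Cndp2 (0.75), of which Cfd is adipsin, made by fat cells. Lcn2 was closest to Hcn4 (0.76), Rap2c (0.70) and Mbp (0.70), and Ngp to Ggnbp1 (0.75), Pbx3 (0.74) and Psmd9 (0.74). Cxcr2, with few reads, was closest to Mob3b, AABR07005844.1 and Exoc6b (0.74 each). These values describe samples that share groups, depth and tissue makeup, and no member other than S100a8 and S100a9 had another member among its 3 closest genes.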

How the data were processed

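Urethral RNA of 24 samples was sequenced as QuantSeq 3′ libraries. Per the study's methods, fastq-mcf served for trimming, HISAT2 for alignment to Rnor6.0 without multi-mappers and HT-seq Count for counting. The deposited signal, made by the authors, is a count divided by the DESeq2 size factor of its sample, for 32883 genes. Every value (100%) was a whole number of reads times that sample's step (tolerance 0.001), so reads were recovered (2170695 to 10166052 per sample).

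Groups came from the labels. Genes with a mean of at least 2 (16287) were tested on log2(normalized count + 1) with limma 3.58.1 in R 4.3.3 (two-sided, Benjamini-Hochberg). Recovered urethras were compared within the 12 samples of 7d. Alternatives changed the pseudocount (5), the filter (none, or 10), the scaling (quantile, equal totals), the samples fitted (groups compared, single samples left out), the model (replicate block) and the tool (DESeq2 1.42.0 and edgeR 4.0.16 on recovered reads). The scripts were tested on simulated data. With 200 genes changed by a log2 of 2 in MAB against saline at 3d, limma recovered 131 and made 14 false calls. For MAB against saline at 7d, where no gene was changed, it made 0 calls. The 8 genes, the lists and the naming rule (members, called list genes or else the 3 most abundant, and the 3 closest genes to each member) were chosen with earlier results of these data known. Elane, Cd177, Cxcr1, the 3d minus 7d difference of VEGF MAB against MAB, the S100a8 to S100a9 ratio and the fit without 2 samples were added after values were seen. The result of 1 list gene is not reported here.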

Additional observations from a re-analysis of the deposited data

Results flagged for a closer look

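Of 48 sets of 4 samples (8 genes in 6 groups), 14 had 1 sample far from the other 3 by Dixon's test. The sets of Mpo in MAB and in VEGF MAB at 3d, with 0 in every sample, could not be tested. Chance flags about 1 in 20 groups of normally distributed values, which these skewed counts are not, and 3 of the sets (Mpo with saline at 3d, Cxcr2 with saline at 3d and in MAB at 7d) had reads in a single sample, which is always flagged. The number of flagged sets is therefore not set against that rate. Lcn2 had 3 such samples, all high, at 819 normalized counts in saline replicate 8 of 3d (next highest 65.4), at 408 in VEGF MAB replicate 2 of 3d (next 17.8) and at 1170 in VEGF MAB replicate 11 of 7d (next 75.7). Camp had 4, with 73.9 in MAB replicate 3 of 3d, 0 in VEGF MAB replicate 1 of 3d, 157 in saline replicate 2 of 7d and 27.9 in VEGF MAB replicate 11 of 7d. Ngp had 2, at 249 in saline replicate 2 of 7d and at 195 in MAB replicate 13 of 7d. Mpo also had 2, at 15.7 from 4 reads in saline replicate 8 of 3d and at 141 in MAB replicate 13 of 7d. Csf3r had 1, at 222 in MAB replicate 3 of 3d. The 2 of Cxcr2, at 6.89 from 2 reads in saline replicate 6 of 3d and at 1.67 from 1 read in MAB replicate 11 of 7d, stand on counts too low to read. S100a8 and S100a9 had none.

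Several samples returned. MAB replicate 3 of 3d was high in both Csf3r and Camp, saline replicate 2 of 7d in both Camp and Ngp, MAB replicate 13 of 7d in both Mpo and Ngp, and saline replicate 8 of 3d in both Lcn2 and Mpo.

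S100a9 in VEGF MAB against MAB was higher in every sample at 3d and lower in every sample at 7d. The difference of these changes on the log2 scale was 4.16, with a limma adjusted p of 0.941.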

How the results depend on the processing

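The 28 log2 fold changes of members given above were recomputed under each alternative, 283 times with another setting and 672 times without 1 sample. They kept direction and side of the threshold in 270 and 665 of these. The number of called members in VEGF MAB at 3d against 7d, 1 in the report, was 0 without the filter, with quantile normalization, with only the groups compared, by edgeR and without saline replicate 8 and VEGF MAB replicate 2 of 3d, and 0 to 2 when single samples were left out. The number of called members stayed within 1.5 times the reported one in the other 12 comparisons. The Csf3r call behind it had adjusted p of 0.0763, 0.0686, 0.0906, 0.0503 and 0.0887 in these 5 settings. S100a8 in MAB at 3d against 7d passed with equal totals (adjusted p = 0.0429), with only the groups compared (0.00687), by both count tools and without saline replicate 8 of 3d, alone or with VEGF MAB replicate 2 of 3d (0.0196). S100a8 in VEGF MAB at 3d against 7d also passed without saline replicate 8 (0.0340). Signs turned in values that passed no test. Without saline replicate 8 and VEGF MAB replicate 2 of 3d, a setting chosen after seeing the data, VEGF MAB against saline at 3d was -0.044 for S100a9 and -0.021 for S100a8, and saline at 3d against 7d was 0.187 for S100a9. With single samples left out, saline at 3d against 7d ran from -1.23 to 0.187 for S100a9 (highest without saline replicate 8) and MAB against saline at 3d from -1.503 to 0.073 for S100a8 (highest without saline replicate 10). The causes were not tested.

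MAB and VEGF MAB of 3d share the replicate numbers 1 to 4. Over all tested genes, the deviations of same-numbered samples from their group means had correlations of 0.222, 0.151, 0.0734 and 0.254. Differently numbered samples were not correlated as a reference, so these values do not decide whether the numbers mark pairs. The main fit did not take them as pairs. With the replicate block 0 members and 1 gene were called at 3d, as without it. Equal totals moved the median of all genes in MAB against saline at 3d from 0.07 to -0.19. Depth limits Mpo, Cxcr2, Camp and Ngp most, where 1 read in a MAB sample of 3d is worth up to 9.23 normalized counts.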
